A study of Mus musculus with 5 samples.

Results

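The cytosolic ribosome of mouse cells is built from ribosomal RNA and a set of ribosomal proteins, and the genes of those proteins were followed here in keratinocytes of mouse back skin. Members were the rows whose Ensembl gene ID carries a protein-coding symbol of Rpl or Rps and a number, together with Rplp0, Rplp1, Rplp2 and Rpsa, without pseudogenes and Rps6k kinases. The rule gave 85 of the 56691 genes in the count table, 52 of the large and 33 of the small subunit. It used no measured value.

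RNA was sequenced from keratinocytes of mice at day 28, in 3 GFP and 2 bulk libraries. Cells of GFP replicates 1, 2 and 3 were sorted for GFP and labelled Lrig1 positive. Those of bulk replicates 1 and 2 were titled bulk and labelled basal keratinocytes of genotype WT. Lrig1 encodes a membrane protein that marks stem cells of the upper hair follicle. The labels name no treatment, strain, reporter allele, promoter or sorting gate, and do not say whether animals were pooled. Bulk 1 and GFP 1 share the title number 4143, bulk 2 and GFP 2 share 4145, and GFP 3 alone has 4146. Libraries that share a title number thus differ in label, WT for bulk and Lrig1 positive for GFP. A difference by genotype, if there is one, cannot be told apart from one by sorting.

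Ribosomal proteins hold the folded ribosomal RNA in shape and line the sites where messenger RNA, transfer RNA and the growing chain pass. Cells make them in equal numbers, because nearly every protein is present once in each ribosome, and the acidic stalk proteins are the main exception. Their mRNAs are short and abundant. Many start with a run of pyrimidines at the very 5′ end, the 5′ terminal oligopyrimidine (TOP) tract, through which growth signalling by mTOR controls their translation. In skin, as in other renewing tissues, ribosome production is tied to cell growth and division.

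A minority of the annotated start sites show this feature, and 8 that do were picked to show tracts from long (Rpl15) to short (Rplp2). Rpl35a also has annotated starts without such a tract, which are not printed. RefSeq promoters on GRCm38.p6 matched 65 of the 85 members. Each sequence is the sense strand, 5′ to 3′, from 10 bases before the annotated start to the twentieth transcribed base. Capitals mark the unbroken run of pyrimidines that begins at the start with a C. The sites are Rpl15 (chr14:18270967-18270996, minus strand), Rpl35 (chr2:39005112-39005141, minus), Rps6 (chr4:86857348-86857377, minus), Rpl35a (chr16:33056472-33056501, plus), Rpl28 (chr7:4792955-4792984, plus), Rps15a (chr7:118116128-118116157, minus), Rps27 (chr3:90213629-90213658, minus) and Rplp2 (chr7:141447641-141447670, plus).
Rpl15: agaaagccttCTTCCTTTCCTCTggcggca
Rpl35: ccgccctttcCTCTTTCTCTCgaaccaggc
Rps6: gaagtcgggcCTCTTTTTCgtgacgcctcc
Rpl35a: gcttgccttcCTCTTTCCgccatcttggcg
Rpl28: tctcgtgtctCTCTTTCCgtctccggccgc
Rps15a: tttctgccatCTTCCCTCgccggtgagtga
Rps27: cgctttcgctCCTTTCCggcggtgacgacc
Rplp2: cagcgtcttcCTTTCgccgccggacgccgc

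A C at the annotated start followed by at least 4 pyrimidines was present in 14 of 77 member promoter entries (18.2%), against 2.51% of all 32851 entries in the table. Where an annotated start lies a few bases off the used one, this search misses the tract, and 10 members had more than 1 start. The hexamer CTTCCG, on either strand of the 300-base window, was in 59.7% of member entries and 16.9% of all entries. GGGCGG was in 59.7% and 35.7%, and TATAAA in 9.09% and 13.6%. These shares describe letters in the window and do not show that a factor binds there. Rpl15, a large subunit protein, was at 473 and 395 CPM in bulk and at 782, 658 and 395 CPM in GFP 1 to 3 (counts scaled to a common library size, adjusted by the TMM method). Rpl35, a protein near the tunnel exit, was at 330 and 215 CPM in bulk and at 599, 448 and 271 CPM. In both genes GFP 1 and GFP 2 were highest and GFP 3 was within or near the bulk range. The 14 tested members with the tract at an annotated start had a median log2 difference between sorted and bulk cells of 0.51. The 49 matched members without it there had 0.52. Since the search can miss a tract, the 49 may include members that have one, and no conclusion is drawn.

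Libraries held 56829330 to 105887450 counts, and replicates differed well beyond counting error. Lrig1 was at 163 and 155 CPM in bulk and at 210, 226 and 213 CPM in GFP 1 to 3, a difference that edgeR did not call with a group term (adjusted p = 0.292) and called with the title number as a block (adjusted p = 0.00676). GFP 3 stood apart: it had 53714 counts of Xist, which is made in female cells, against 0 to 8 in the other libraries, and 62 counts of the Y-linked Ddx3y against 1750 to 4462. Results are therefore given with and without it. Marker sums are in CPM by library size alone, without the TMM adjustment. All 8 basal keratinocyte markers were detected, with a summed level of 23290 and 26230 CPM in bulk and 34220 to 39700 CPM in sorted cells. Bulk libraries also held 17900 to 22920 CPM of 9 suprabasal markers, against 7974 to 11200 CPM in sorted cells. Markers of other cells were higher in both bulk libraries as well, with 1308 and 2352 CPM of 12 hair genes against 40.6 to 50.2 CPM, and 304 and 309 CPM of 6 myeloid genes against 19.6 to 41.7 CPM. Melanocyte genes (6) summed to 119 to 293 CPM in bulk and 4.59 to 10.2 CPM in sorted cells, red cell genes (5) to 204 to 213 CPM and to 7.39 CPM or less, and sebaceous genes (5) to 560 to 632 and 209 to 273 CPM. Fibroblast genes (6) were at 161 and 206 CPM in bulk and at 156, 33.6 and 10.01 CPM in GFP 1 to 3. T cell genes (5), 164 to 234 CPM, and skeletal muscle genes (4), 2.58 to 4.73 CPM, were closer between groups, and 4 endothelial genes were at 3.48 CPM or less. No defining marker was at 0 throughout a group.

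Ribosomal protein mRNA was more abundant in GFP 1 and GFP 2 than in either bulk library, and GFP 3 was at the bulk level. Summed over the 85 members it came to 65370 CPM in bulk 1 and 53608 CPM in bulk 2. The sums were 110254, 88623 and 54913 CPM in GFP 1, 2 and 3. GFP 1 and GFP 2 were the highest, and GFP 3 lay between the bulk libraries. The group means were 59489 ± 8317 CPM in bulk (SD, n = 2) and 84597 ± 27889 CPM in sorted cells (SD, n = 3), a ratio of 1.42. The two-sided exact permutation p was 0.3, and the smallest that 10 splits of 5 libraries allow is 0.1. Within a title number the ratio was 1.69 for 4143 and 1.65 for 4145. GFP 3 stood at 0.840 of bulk 1 and 1.02 times bulk 2, while GFP 1 was 2.01 times GFP 3, so sorted libraries differed from each other by more than the group means did. In such data fewer cells with much of an mRNA and less of it per cell cannot be told apart. The groups also differ in the marker levels above, whose part in this result was not tested.

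Both subunits followed the same course. Large subunit genes summed to 37583 and 30870 CPM in bulk and to 62926, 51371 and 31937 CPM in GFP 1, 2 and 3. Small subunit genes summed to 27787 and 22738 CPM in bulk and to 47328, 37251 and 22976 CPM in sorted cells. The ratio of large to small stayed between 1.33 and 1.39 in the 5 libraries.

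**Figure D1:**
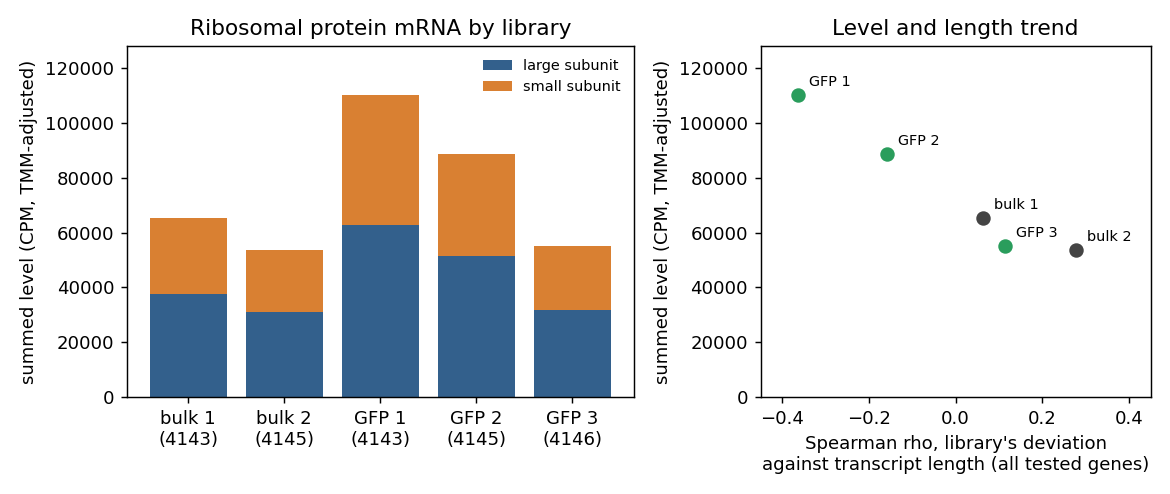
Left, summed level of large and small subunit genes (CPM, TMM-adjusted) in each of the 5 libraries, with the title number in brackets; GFP 1 and GFP 2 are highest at 110254 and 88623 CPM, and GFP 3 at 54913 CPM lies between the bulk libraries. Right, the same sum against the Spearman correlation, over all tested genes, of a library's deviation from the gene mean with transcript length; the sum falls as the correlation goes from -0.364 (GFP 1) to 0.278 (bulk 2).

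Of the 85 members, 83 passed the filter on low counts. The testis-type copies Rpl10l and Rpl39l did not. Rpl10l had 0 counts in every library. There 3 counts, the upper limit that a count of 0 allows, would be 0.0283 to 0.0528 CPM by library size alone. Rpl39l had 3 and 15 counts in the bulk libraries and 0 in the sorted ones. With a group term alone, edgeR called none of the 83 higher and none lower (adjusted p of 0.146 to 0.851), where 0.145% of all 18583 tested genes were called higher and 5.14% lower. At an unadjusted p under 0.05, 2 members were higher, Rpl30 and Rpl21, against 4.28% of all genes, and 0 were lower, against 11.6%. The members' share was thus below that of all genes. DESeq2's Wald test called 1 higher, Rpl30 (1.01% of all genes), and limma-voom called 0. With no filter on low counts edgeR called Rpl22l1 higher and Rpl39l lower, as it did 0.786% and 5.06% of all genes. Yet 82 of 83 members had a positive log2 difference, with a median of 0.52 and a range from -0.36 (Rpl3l) to 0.84 (Rpl17). The median over all tested genes was 0.05.

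In 79 of 83 members the groups overlapped. The 3 sorted libraries lay above both bulk libraries in 4 members, Rpl21, Rpl24, Rpl30 and Rpl7l1 of those 83, where 14.6% of all genes were so arranged. The margin was narrow in Rpl24, with 23.56 CPM in GFP 3 and 23.54 CPM in bulk 2. In Rpl7l1 it was also narrow, with 60.5 CPM in GFP 3 and 59.3 CPM in bulk 1. No tested member lay below both, as 18.5% of all genes did. GFP 1 and GFP 2 were the highest libraries in 78 members. GFP 3 was above bulk 1 in 5 members and above bulk 2 in 50. Without GFP 3 the median log2 difference was 0.76, and edgeR again called 0 members, where 0.522% of all genes were called higher. At an unadjusted p under 0.05, 73 members were higher in that fit, as were 9.29% of all genes. The smallest adjusted p was then 0.0592.

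**Figure D2:**
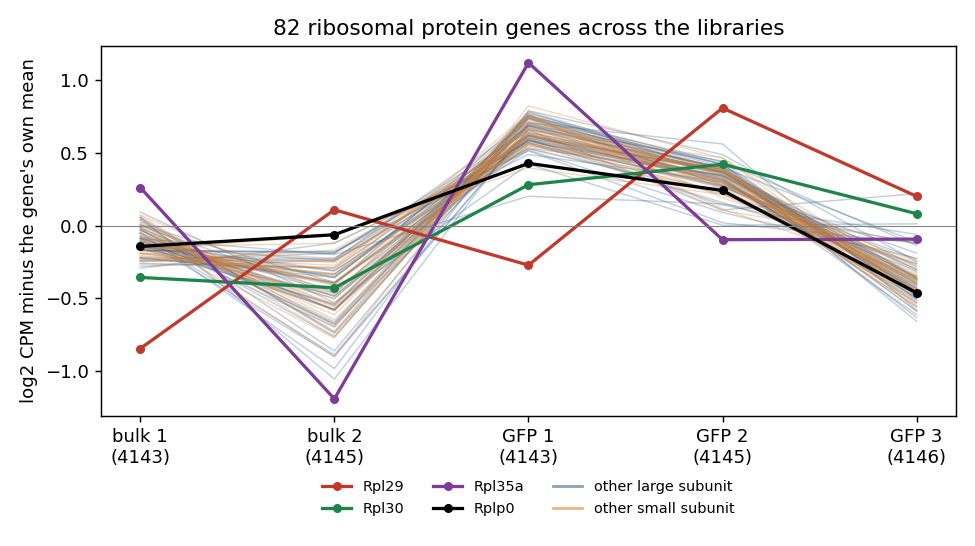
Level of 82 members (all tested but Rpl3l) in each library, as log2 CPM minus the gene's own mean over the 5 libraries; lines only join the points of a gene. Most members peak in GFP 1 and are near or below 0 in GFP 3, while Rpl29 and Rpl35a take separate courses between title numbers 4143 and 4145.

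Compared within title numbers, nearly all members were higher in sorted cells. GFP 1 lay above bulk 1 and GFP 2 above bulk 2 in 82 of 83 members, while 38.5% of all tested genes were higher in both pairs. The median log2 difference over the 82 members with a mean of at least 1 CPM was 0.74 in 4143 (range 0.29 to 0.97) and 0.75 in 4145 (range 0.14 to 1.496). All genes had medians of 0.01 and -0.01. With the title number as a block, edgeR called 81 members higher and 0 lower, with a median of 0.76, where 16.4% of all genes were called higher and 19.7% lower. That fit has 1 residual degree of freedom and draws its contrast from the 4 paired libraries, so GFP 3 adds little to it. The SE and p-values of the fit rest mostly on an error shared across genes, not on the difference between a gene's own pairs. Without GFP 3 it called 80 (16.3% of all genes were higher). The labels do not say that a title number is an animal. The members not called with the block were Rpl3l, at 3 to 10 counts per library, and Rpl7l1 (0.32 ± 0.14, adjusted p = 0.0653).

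**Figure D3:**
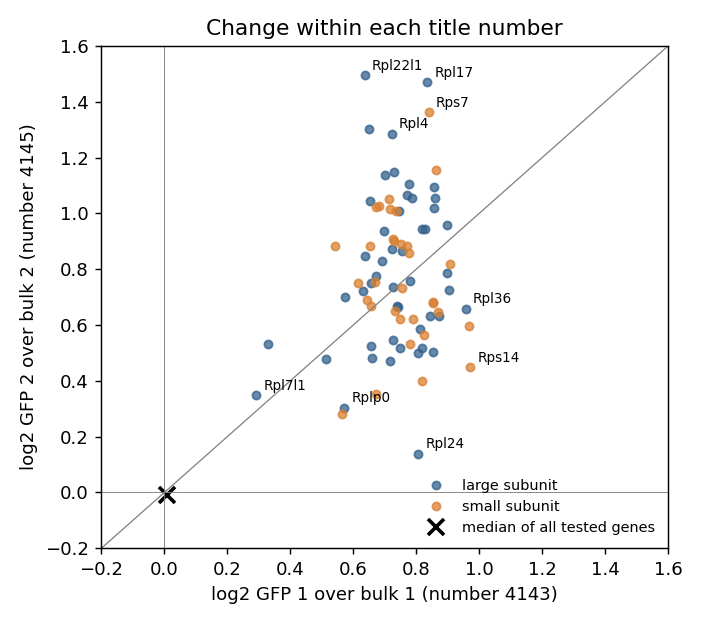
log2 ratio of GFP 2 to bulk 2 against that of GFP 1 to bulk 1 for the 82 members, with the median of all tested genes as a cross and the line of equal change. Every member lies above 0 on both axes, and the spread is narrower in 4143 (SD 0.12) than in 4145 (SD 0.27).

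Ribosomal protein mRNAs are short, and the libraries differed in how level varied with transcript length. Over all tested genes, the Spearman correlation of a library's deviation with transcript length was -0.364 in GFP 1, -0.157 in GFP 2, 0.064 in bulk 1, 0.115 in GFP 3 and 0.278 in bulk 2. The summed ribosomal protein level fell in this order, with GFP 3 and bulk 2 close together. With a trend on length and GC content removed, the sums were 65781 and 59441 CPM in bulk and 96951, 84569 and 58564 CPM in GFP 1 to 3. The ratio was then 1.47 in 4143 and 1.42 in 4145, GFP 3 was 0.890 of bulk 1 and 0.985 of bulk 2, and the ratio of group means was 1.28. With the block and the trend removed, edgeR called 72 members higher and 0 lower, where 15% of all genes were called higher and 16.4% lower, with a member median of 0.52 against 0.02 for all genes. With the trend taken from the longest transcript it called 74 (15.9% of all genes). Without the block 0 were called and the median was 0.36. Since most members are short, a change in them and a length trend cannot be fully told apart. Other measures of the RNA also moved between libraries: mitochondrial transcripts took 2.49% and 1.81% of counts in bulk and 1.597%, 1.37% and 2.46% in GFP 1 to 3. By library size alone, the nuclear RNA Malat1 was at 158 and 405 CPM in bulk and at 82.1, 161 and 241 CPM in GFP 1 to 3. It was lowest where ribosomal protein mRNA was highest.

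The acidic stalk, which recruits the elongation factors, is made of Rplp0 with pairs of Rplp1 and Rplp2. Rplp0 was at 3898 and 4121 CPM in bulk and at 5790, 5088 and 3124 CPM in GFP 1 to 3. By CPM it was the highest of the 3 genes in every library. CPM is not adjusted for length, and per kb of coding sequence Rplp1 was higher (6221 against 4631 CPM). The GFP 3 value of Rplp0 was the lowest of the 5. The log2 difference was 0.22 ± 0.34 (edgeR adjusted p = 0.806), the second smallest in the family, and 0.44 ± 0.18 with the block (adjusted p = 0.0465). Rplp1 was at 1817 and 1803 CPM in bulk and at 3050, 2579 and 1388 CPM in sorted cells. Rplp2 was at 869 and 858 CPM in bulk and at 1534, 1228 and 641 CPM in sorted cells. In both, the bulk libraries were nearly equal and the sorted ones lay on either side of them. With the block Rplp1 and Rplp2 were called (0.63 and 0.67, edgeR adjusted p = 0.00119 and 0.00022). With the trend also removed Rplp2 was called (adjusted p = 0.0217), but Rplp0 (0.306) and Rplp1 (0.183) were not.

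The exit tunnel of the large subunit, through which the new chain leaves, is lined by the proteins of Rpl4, Rpl17 and Rpl39. Rpl17 (ENSMUSG00000062328.9) had the largest log2 difference of the family. It was at 1037 and 542 CPM in bulk and at 1849, 1501 and 901 CPM in GFP 1 to 3. GFP 3 fell between the bulk libraries, and the difference of 0.84 ± 0.40 was not called (edgeR adjusted p = 0.365). With the block it was 1.15 ± 0.16 (adjusted p = 6.26e-11). Rpl4 was at 2573 and 1450 CPM in bulk and at 4243, 3535 and 2481 CPM in sorted cells (0.77 ± 0.37, edgeR adjusted p = 0.379, and 2.17e-07 with the block). Bulk 1 was again the higher of the bulk pair and close to GFP 3. Rpl39 was at 255 and 147 CPM in bulk and at 400, 361 and 164 CPM in sorted cells.

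The proteins of Rpl5 and Rpl11 form a particle with 5S ribosomal RNA that also binds the p53 regulator Mdm2 when ribosome assembly is disturbed. Rpl5 was at 701 and 376 CPM in bulk and at 1140, 828 and 600 CPM in GFP 1 to 3. Rpl11 was at 592 and 427 CPM in bulk and at 1071, 864 and 450 CPM in sorted cells. GFP 1 and GFP 2 were above both bulk libraries in each gene and GFP 3 was between them. With the block both were called (0.92 and 0.94, edgeR adjusted p = 7.76e-08 and 3.39e-08).

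Rpl30 and Rpl21 had sorted libraries that did not overlap with bulk and an unadjusted p under 0.05. Rpl30 encodes a large subunit protein known for binding its own transcript in yeast. It was at 205 and 195 CPM in bulk and at 318, 351 and 277 CPM in sorted cells. The bulk libraries were close together and GFP 3 stayed well above them, unlike in most members. Its log2 difference of 0.66 ± 0.21 had the smallest adjusted p of the family in edgeR (0.146, and 4.39e-06 with the block). Rpl21 was at 623 and 355 CPM in bulk and at 1044, 713 and 770 CPM in sorted cells (0.79 ± 0.32, edgeR adjusted p = 0.279, and 3.02e-07 with the block). Bulk 1 came near GFP 2, and GFP 3 was above GFP 2.

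On the small subunit, Rps6 encodes the protein phosphorylated by S6 kinase below mTOR. It was at 532 and 328 CPM in bulk and at 967, 731 and 449 CPM in GFP 1 to 3 (0.73 ± 0.37, edgeR adjusted p = 0.398, and 1.01 with the block, adjusted p = 1.59e-09). Rps7, a protein of the small subunit body needed for its early assembly, was at 707 and 383 CPM in bulk and at 1266, 986 and 556 CPM in sorted cells. Rps3, which lies where mRNA enters the ribosome, was at 1529 and 1329 CPM in bulk and at 2765, 2134 and 1338 CPM in sorted cells. In all 3 genes GFP 3 lay between the bulk libraries. Rpsa, also known as the laminin receptor, was at 1649 and 1745 CPM in bulk and at 2906, 2303 and 1499 CPM in sorted cells, so that GFP 3 was the lowest of all. Rps2, also near the mRNA entry, had the same order, with 1276 and 1298 CPM in bulk and 2035, 1658 and 1004 CPM in sorted cells. Its difference was among the smallest (0.28 ± 0.33, edgeR adjusted p = 0.733, and 0.00762 with the block). In the block fit edgeR called 33 of 33 small subunit members and 48 of 50 tested large subunit members higher. Of all genes, 16.4% were called higher in it and 19.7% lower.

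The 4 X-linked members were examined because GFP 3 was the library with Xist. Rpl10 was at 915 and 806 CPM in bulk and at 1442, 1160 and 804 CPM in sorted cells. Rps4x was at 1688 and 1318 CPM in bulk and at 2658, 2097 and 1487 CPM in sorted cells. Rpl36a was at 337 and 215 CPM in bulk and at 575, 450 and 242 CPM in sorted cells. Against the bulk mean, GFP 3 stood at -0.10 for Rpl10, 0.00 for Rps4x, -0.15 for Rpl36a and -0.24 for Rpl39 on the log2 scale. The median of all 83 members was -0.12, so the X-linked members lay on both sides of it.

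Paralogues were far below their partners in counts. How reads that match several places were counted is not given, and its part in these levels was not tested. Rpl22l1 can replace Rpl22 in the large subunit. It was at 80.8 and 37.4 CPM in bulk and at 126, 105 and 70.6 CPM in sorted cells, or 9.73% to 16.8% of the Rpl22 level over the 5 libraries, lowest in bulk 2. Rps27l was at 9.37% to 12.6% of Rps27, also lowest in bulk 2. Rpl7l1, a nucleolar relative of Rpl7, was at 59.3 and 55.0 CPM in bulk and at 72.5, 70.0 and 60.5 CPM in sorted cells, a narrow spread for this family. It made 3.45% to 5.90% of the Rpl7 level. Rpl36al was at 1.36% to 2.54% of Rpl36a and Rps27rt at 0.208% to 0.260% of Rps27. Rpl3l, the copy used in heart and skeletal muscle, had 7 and 10 counts in bulk and 10, 3 and 6 counts in sorted cells, and Rpl3 stood at 846 to 1609 CPM.

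Per kilobase of coding sequence, levels of most members were alike. The median over 82 members and all libraries was 1760 CPM per kb with quartiles of 1233 and 2280, and 65 of 82 lay within 2-fold of the median. Rpl41, which encodes a tiny basic peptide, was highest at 15411 CPM per kb of coding sequence, a value raised by the short reading frame. Per kb of transcript it was 1986, below Rplp1 (4264) and Rplp0 (3243). Rplp1 (6221) and Rplp0 (4631) followed Rpl41 per kb of coding sequence. In the small subunit Rps15, Rps27 and Rps26 were highest, with 3476, 3292 and 3269 CPM per kb of coding sequence. At the low end, besides paralogues, were Rps10 (25.4), Rpl24 (55.4) and Rpl13a (127 CPM per kb), each a core protein of the ribosome. These genes have near-identical processed copies, and how the authors' counting treated reads that match several places is not given in the sources used here, so these low levels are uncertain. The 300 rows of annotated ribosomal protein pseudogenes summed to 175 to 324 CPM by library size alone, or 0.265% to 0.414% of the member counts. The order of member levels hardly changed between libraries, with a Spearman correlation of 0.955 to 0.992 over the 10 pairs of libraries.

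Scaled to the family's own total, members can be compared with each other whatever the level of the whole family. With a group term edgeR called 0 of 83 (4.65% of all genes were called in either direction, and 0 members were called by leaving out any single library). With the block it called Rpl17 higher (0.41 ± 0.18, adjusted p = 0.0474) and Rpl7l1 lower (-0.42 ± 0.14, adjusted p = 0.0112), where 66.6% of all genes were called, most of them lower because the scaling follows the family. With the trend also removed Rpl17, Rpl22l1 and Rps15a were called higher (edgeR adjusted p = 0.0409, 0.0355 and 0.0251) and Rps10 lower (0.0441), where 51.7% of all genes were called.

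Larger shifts in proportion were called between the title numbers than between the groups. In the same scaled fit edgeR called 2 members between 4145 and 4143, where 25.2% of all genes were called, and these 2 were chosen after their values were seen. Rpl29 was at 116 and 224 CPM in bulk 1 and 2 and at 172, 364 and 239 CPM in GFP 1 to 3. It was higher in 4145 in both groups, by 1.32 ± 0.14 on the log2 scale relative to the family (adjusted p = 8.92e-06). Rpl35a was at 256 and 93.4 CPM in bulk and at 463, 199 and 200 CPM in sorted cells. It was lower in 4145 in both groups, with a log2 difference of -1.03 ± 0.14 (adjusted p = 9.93e-05). Both genes were low for the family, at 465 (Rpl29) and 734 (Rpl35a) CPM per kb of coding sequence, where the lower quartile was 1233. How reads that match several places were counted is not given, and its part in these values was not tested. The labels do not say what a title number stands for. This fit has 1 residual degree of freedom, so its SE and p-values do not measure the variation between title numbers. Over the whole family, 73 members were higher in 4143 than in 4145 in both groups, where 36% of all genes were.

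Genes that work with the ribosome were compared in the same fits. The lists are broad: that for assembly includes the transcription factors Myc and Mycn. That for translation factors includes Eif4ebp1, Hnrnpa1, Tpt1, Naca and Btf3. No gene of the lists for mitochondrial ribosomal proteins (77 tested), ribosome assembly (51), translation factors (41), nor Fau or Rack1, which encode ribosomal proteins under other symbols, was called by edgeR with a group term. At an unadjusted p under 0.05 there were 2 higher in the mitochondrial list, 5 higher and 1 lower in assembly, 3 higher among translation factors and 0 of Fau and Rack1, where 4.28% of all genes were higher and 11.6% lower. List medians were 0.26, 0.27 and 0.29, and that of Fau and Rack1 was 0.44, against 0.52 for the cytosolic ribosomal proteins. With the block 44 mitochondrial ribosomal proteins were higher and 0 lower, 17 assembly genes higher and 4 lower, and 21 translation factors higher and 4 lower, where 16.4% of all genes were higher and 19.7% lower. Fau and Rack1 were both higher. With the trend also removed the counts were 26 and 1, 12 and 1, 18 and 2, and 2 and 0, where 15% of all genes were higher and 16.4% lower.

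In GFP 3 the lists parted from the pattern of the ribosomal proteins to different degrees. Median log2 differences in 4143 and 4145 were 0.46 and 0.38 for mitochondrial ribosomal proteins, 0.43 and 0.31 for translation factors and 0.24 and 0.16 for assembly genes. GFP 3 against the bulk mean gave -0.08, 0.07 and 0.30 for these lists, and -0.12 for the cytosolic ribosomal proteins. Assembly genes were thus the list whose median was highest in GFP 3.

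**Figure D4:**
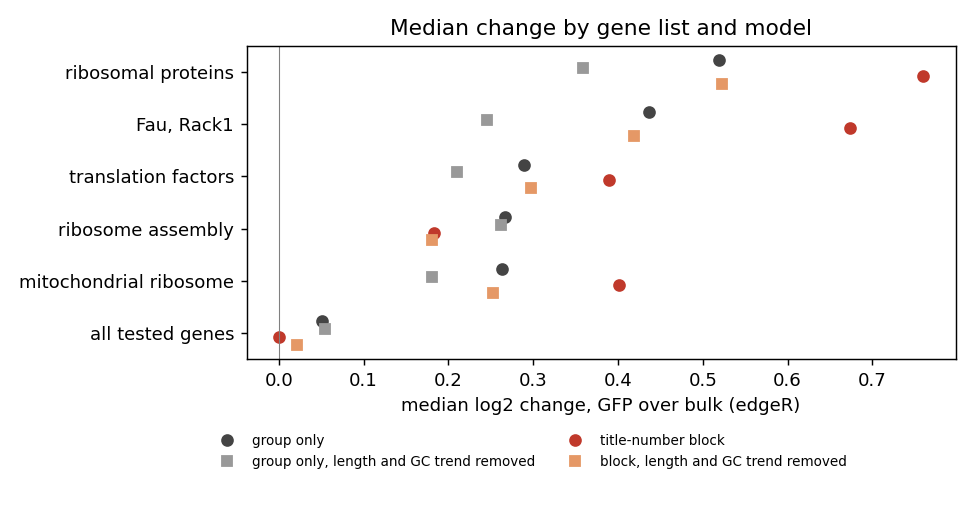
Median log2 difference between sorted and bulk cells for each gene list and for all tested genes, in the edgeR fits with a group term or the title-number block, each with the length and GC trend kept or removed. The ribosomal protein median is the highest of the lists in all 4 fits, from 0.36 to 0.76, and that of all genes stays between 0.00 and 0.05.

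Among the single genes of these lists, Rack1, a signalling scaffold on the small subunit head, was at 1889 ± 77.6 CPM in bulk (SD, n = 2) and 2553 ± 786 CPM in sorted cells (SD, n = 3). The log2 difference was 0.43 (edgeR adjusted p = 0.585), and 0.65 with the block (adjusted p = 0.00098). Fau, a fusion of a ubiquitin-like protein with a small subunit protein, was at 560 ± 28.6 and 759 ± 289 CPM (edgeR adjusted p = 0.602, and 5.61e-05 with the block). The mitochondrial ribosomal genes with the smallest p were Mrps16 (0.69, edgeR adjusted p = 0.272) and Mrps22 (0.75, 0.299). With the block both were called (edgeR adjusted p = 9.03e-08 and 1.05e-06). Among assembly genes, Ltv1 (0.61, edgeR adjusted p = 0.121), an export factor of the small subunit, and Nmd3 (0.75, 0.148), that of the large subunit, had positive differences. Mycn, a transcription factor kept in the same list, had a negative one (-0.77, 0.162). With the block Ltv1 and Nmd3 were called higher and Mycn lower (edgeR adjusted p = 0.000836, 7.06e-05 and 2.15e-05). Eif4e, the cap-binding factor, was at 0.52 (edgeR adjusted p = 0.225), and Eif3e, a subunit of the initiation factor that loads the small subunit, at 0.75 (0.266). The block called both higher (edgeR adjusted p = 0.000637 and 1.32e-08).

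Myc, a transcription factor known to drive ribosome production, was at 529 and 484 CPM in bulk and at 620, 639 and 985 CPM in GFP 1 to 3. Its highest value was in GFP 3, the sorted library with the least ribosomal protein mRNA. The difference of 0.56 ± 0.28 was not called (edgeR adjusted p = 0.389, and 0.0997 with the block).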

How the data were processed

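The authors deposited whole-number counts per versioned Ensembl gene, not normalized. STAR and GRCm39 were used, per the submitters' processing notes; the counting tool, annotation release, strand setting and handling of multiply matching reads are not given in the sources. Symbols came from GENCODE M21 (GRCm38) by ID without version (52073 of 56691 matched). Members and lists were chosen with earlier results of these data known.

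Genes were tested with edgeR 4.0.16 in R 4.3.3 (TMM, filterByExpr with a minimum count of 10 and total of 15, quasi-likelihood, two-sided) with a group term (3 residual degrees of freedom) and Benjamini-Hochberg adjustment over 18583 genes, called under 0.05. The procedure was run on simulated counts with changes in randomly chosen genes. These held no title-number effect and no shared shift of a gene family. They therefore do not show how the block fit behaves where such shifts are present. Log2 differences are GFP over bulk ± SE. A second scaling used the summed member counts. The trend correction is a loess fit (span 0.3) of library deviations on length and GC content of each gene's principal coding transcript (18107 genes), used as an offset. Separate animals are not stated, so p-values measure the spread between these libraries, which may be technical.

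Before the fits were compared, a title number was assumed to be an animal, on no statement of the labels. Bulk libraries labelled WT and GFP libraries labelled Lrig1 positive share title numbers, which the labels do not explain. GFP 1 minus GFP 2 correlated with bulk 1 minus bulk 2 across 18583 genes (Pearson r = 0.44). Any shift shared by libraries of a title number, technical ones included, would also give such a correlation. It therefore cannot show that they share an animal. Alternatives were DESeq2 1.42.0, limma-voom (limma 3.58.1), other scalings and filters, the replicate block, the trend and leaving out libraries. Named genes were those highest per coding kb, the 5 largest and smallest differences, called members, stalk genes, paralogues, X-linked members and up to 3 genes of each list by p. Rpl5, Rpl11, Rpl13a, Rpl15, Rpl24, Rpl29, Rpl30, Rpl35, Rpl35a, Rps3 and Rps6 were added after values were seen. 1 gene of a list is not reported here.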

Additional observations from a re-analysis of the deposited data

Results flagged for a closer look

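Rpl3l, the muscle copy of Rpl3, moved in opposite directions in the title numbers. The log2 difference of sorted over bulk was 0.1139 in 4143 and -0.9877 in 4145, in libraries with 3 to 10 counts of the gene. The difference between the pairs was not tested.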

How the results depend on the processing

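With a group term, edgeR called 0 ribosomal protein genes under every other scaling, with robust dispersion, with limma-voom, and without any single library. An exception was edgeR with no filter on low counts, with 1 higher (Rpl22l1, adjusted p = 0.0354) and 1 lower (Rpl39l). There 0.786% of all genes were higher and 5.06% lower. Another was the DESeq2 Wald test, with 1 higher (Rpl30, adjusted p = 0.0291), where 1.01% of all genes were. The replicate block gave 81 higher, and 72 once the trend on length and GC was taken out. Of all genes, 16.4% and 15% were called higher in these fits. The block gave 80 when GFP replicate 3 was left out and 74 with the trend from the longest transcript, both chosen after seeing the data. The shares of all genes called higher there were 16.3% and 15.9%. The block fit rests on 2 pairs; the cause of the difference in counts was not tested. Scaled to the family total, the block gave 1 higher and 1 lower, or 3 higher and 1 lower with the trend removed. In those fits 66.6% and 51.7% of all genes were called in either direction. The family's median ran from 0.28 without GFP replicate 1 and 0.35 without bulk replicate 2 to 0.76 without GFP replicate 3 (0.48 and 0.69 without the others).

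The replicate block gave 44 mitochondrial ribosomal genes higher (26 higher and 1 lower with the trend removed, 1 higher without GFP replicate 3 and no block). It gave 17 assembly genes higher and 4 lower (12 and 1 with the trend removed), against 3 higher with no filter and 1 higher by the DESeq2 Wald test. It gave 21 translation factors higher and 4 lower (18 and 2), and 2 of Fau and Rack1 higher (2). Of all genes the block called 16.4% higher and 19.7% lower (15% and 16.4% with the trend removed). Without the block the shares called higher were 0.522% without GFP replicate 3, 0.786% with no filter and 1.01% by the DESeq2 Wald test. Depth limits Rpl3l, Rpl39l and Rpl10l, which have few or no counts.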
